A study of Mus musculus with 20 samples.

Results

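The cytosolic ribosomal protein genes were followed in ribosome-bound RNA of mouse hippocampal granule cells from postnatal day 5 (P5) to P28. Genes were taken by name, as symbols of the form Rpl or Rps with a number, an optional letter and an optional trailing digit, together with Rplp0, Rplp1, Rplp2 and Rpsa, without symbols marked as pseudogenes. Of the 32245 symbols in the table of counts, 83 matched and 80 reached a mean of 5 CPM (counts scaled to a common library size) over the 20 libraries. These were 32 genes of the small (40S) subunit and 48 of the large (60S) subunit. The 3 that did not reach it were paralogs best known from testis or muscle. Rpl10l had 0 counts, Rpl39l had 35 counts over all libraries (at most 5 in a library) and Rpl3l had 57 (at most 8). All 80 members passed the filter on low counts and were tested.

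Every sample came from the hippocampus of mice of genotype Rbp4-Cre:RiboTag, and the groups differed in age alone: P5 (5 libraries), and P7, P10, P15, P21 and P28 (3 libraries each). RiboTag mice carry an allele of Rpl22 that gains an HA epitope where Cre acts, so ribosomes of Cre-expressing cells were pulled from a lysate of the whole hippocampus with anti-HA beads and their poly-adenylated RNA was sequenced. In the batch assignment used here, 3 of the P5 libraries share a batch with P10 and P15 (batch A) and the other 2 with P7 (batch B), and P21 shares one with P28 (batch C). The sample titles mark the 2 series of P5 libraries and name no batch for the other ages. Whether libraries stand for different mice is not in the labels, and p-values thus reflect the spread between these samples and nothing wider.

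A cytosolic ribosome is built from ribosomal RNA and a single copy of nearly every ribosomal protein, and the genes for these proteins are among the most highly transcribed in a cell. Their mRNAs start with a C followed by a run of pyrimidines, the terminal oligopyrimidine tract, through which the kinase complex mTORC1 and the RNA-binding protein LARP1 set how much of each mRNA is loaded on ribosomes. A few members have a close paralog (Rpl22 and Rpl22l1, Rps27 and Rps27l) that can take the same place in the particle. In neurons ribosomal protein mRNAs are also found in axons and dendrites, where newly made proteins can join existing ribosomes.

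The libraries held 15.9 to 24.9 M counts, at which 3 counts equal 0.120 to 0.189 CPM, and the members took 0.797 to 1.14% of the counts. The granule cell transcription factor gene Prox1 lay at 547 ± 28.7 CPM (SD, n = 5) at P5, 556 ± 12.4 (n = 3) at P15 and 515 ± 16.9 (n = 3) at P28. The summed level of 8 granule cell markers was 1316 to 1493 CPM at P5, 2038 to 2147 at P15 and 2331 to 2401 at P28. Of the 8, 6 rose to both later ages, beside 31.6% of all genes to P15 and 35.3% to P28. Markers of other stages and cell types moved with age as well. The summed level of 8 immature neuron markers was 2863 to 3483 CPM at P5, 1539 to 2051 at P7 and 480 to 630 at P15, and lay at 384 to 402 by P28. That of 6 cycling cell markers was 85.1 to 145 CPM at P5 and 41.6 to 46.8 at P15. That of 9 oligodendrocyte lineage markers was 173 to 235 CPM at P5 and 1047 to 1813 at P15, and that of 8 astrocyte markers was 627 to 674 and 1212 to 1503 CPM. Of these, 6 oligodendrocyte lineage markers rose and 3 fell to P15, and 4 astrocyte markers rose and 1 fell, beside 31.6 and 31.8% of all genes. Interneuron markers went from 150 to 175 CPM at P5 to 261 to 317 at P15, and CA pyramidal cell markers from 653 to 731 to 901 to 1058. Of 7 interneuron markers 6 rose and 1 fell to P15, and of 7 CA pyramidal cell markers 4 rose and 1 fell, beside the same shares of all genes. All 7 endothelial and mural cell markers fell. None of these markers was at 0 at any age, and their part in the results that follow was not tested. In bulk libraries of this kind, fewer cells of a type and less RNA per cell cannot be told apart. Nor can less of an mRNA be told apart from a smaller part of it on ribosomes, as every library came from the pulldown. Ribosomal protein genes have many near-identical processed copies in the genome, and how reads that map to several places were treated is not given in the sources used here, so every count is uncertain to that extent. The 5 rows named as ribosomal protein pseudogenes held little, led by Rpl9-ps6 with a mean of 3.63 CPM and Rpl10-ps3 with 0.577.

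Start sites are shown first because the tract at the start of these mRNAs is their common feature. RefSeq start windows (GRCm38.p6) were at hand for 60 of the 80 members. Each line gives the 20 bases before and the 20 bases after the annotated start, on the strand of the gene, with CTTTC or CTTTT in capitals. The genes are 4 of those that fell most by P15, 3 that did not fall (Rpl35a, Rpl4, Rps6) and the paralog pairs Rps27 with Rps27l and Rpl22 with Rpl22l1. Both the motif and the genes were chosen after values were seen, and where several starts are listed the one with the nearest motif is shown.
Rpl35 (chr2:39005112-39005151, minus strand): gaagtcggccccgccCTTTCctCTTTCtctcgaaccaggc
Rps12 (chr10:23787190-23787229, minus strand): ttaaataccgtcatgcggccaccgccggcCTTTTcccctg
Rps26 (chr10:128626487-128626526, minus strand): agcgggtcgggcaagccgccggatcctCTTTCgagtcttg
Rpl39 (chrX:37085203-37085242, minus strand): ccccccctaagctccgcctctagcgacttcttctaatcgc
Rpl35a (chr16:33056462-33056501, plus strand): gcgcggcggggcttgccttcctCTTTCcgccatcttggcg
Rpl4 (chr9:64173367-64173406, plus strand): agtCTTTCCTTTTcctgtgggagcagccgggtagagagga
Rps6 (chr4:86857348-86857387, minus strand): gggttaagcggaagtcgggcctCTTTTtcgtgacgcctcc
Rps27 (chr3:90213629-90213668, minus strand): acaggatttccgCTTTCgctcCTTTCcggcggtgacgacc
Rps27l (chr9:66946066-66946105, plus strand): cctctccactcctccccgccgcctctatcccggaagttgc
Rpl22 (chr4:152325706-152325745, plus strand): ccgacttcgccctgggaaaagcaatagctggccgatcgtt
Rpl22l1 (chr3:28805488-28805527, plus strand): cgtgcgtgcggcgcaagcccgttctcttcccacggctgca

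In these windows the motif stands in genes that fell (Rpl35, Rps12, Rps26), in genes that rose by P28 (Rpl35a, Rpl4) and in Rps6. It is absent from those of Rpl39 and Rpl22, which fell, and from those of Rps27l and Rpl22l1. CTTTC or CTTTT lay within 50 bases of the start on the sense strand in 39 of the 60 members (65%) and in 24.4% of all 27025 genes of the table. On the other strand the shares were 20% and 23.7%. Within 20 bases of the start they were 36.7% (22 of 60) and 10.9% on the sense strand. A match is a description of these letters, and an annotated start can lie some bases from the start in use. CTTTC and CTTTT are narrower than a C followed by a run of pyrimidines, so a gene without them can still have the tract. The median log2 change from P5 to P15 was -0.19 over the 39 members with the motif and -0.29 over the 21 without it.

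Summed over the members, the mean level of ribosome-bound ribosomal protein mRNA was lower at each later age down to P21, and P28 lay above P21. CPM here is scaled with trimmed-mean (TMM) factors, which set libraries level by the bulk of genes. The sum over all 80 genes was 10282 ± 394 CPM (SD, n = 5) at P5. In order of age the means were then 9544 ± 267 (P7), 9110 ± 251 (P10), 8897 ± 185 (P15), 8610 ± 388 (P21) and 9415 ± 389 (P28), with n = 3 for each. From P5 to P21 the libraries of each age overlapped those of the next in this sum. The steps from P7 to P10 and from P15 to P21 cross batches and were not tested. The 32 small subunit genes went from 3990 ± 155 CPM at P5 to 3370 ± 69.4 at P15, a log2 difference of -0.24. The 48 large subunit genes went from 6292 ± 241 to 5527 ± 120 CPM, a log2 difference of -0.19. The P5 and P15 libraries did not overlap in either sum, and both differences reached the smallest value an exact two-sided permutation test of 3 against 5 libraries allows (p = 0.0357, adjusted p = 0.133 over the 8 tests of the sums). The other exact tests among the 8 cannot go below p = 0.1 or 0.2, so no adjusted p of the sums could fall under 0.05. Against the P5 libraries of batch A alone the differences were -0.23 and -0.18, where an exact permutation test of 3 against 3 libraries cannot go below p = 0.1. From P21 to P28, inside batch C, the log2 differences were 0.13 for both subunits, again without overlap and at p = 0.1 in the exact test.

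**Figure D1:**
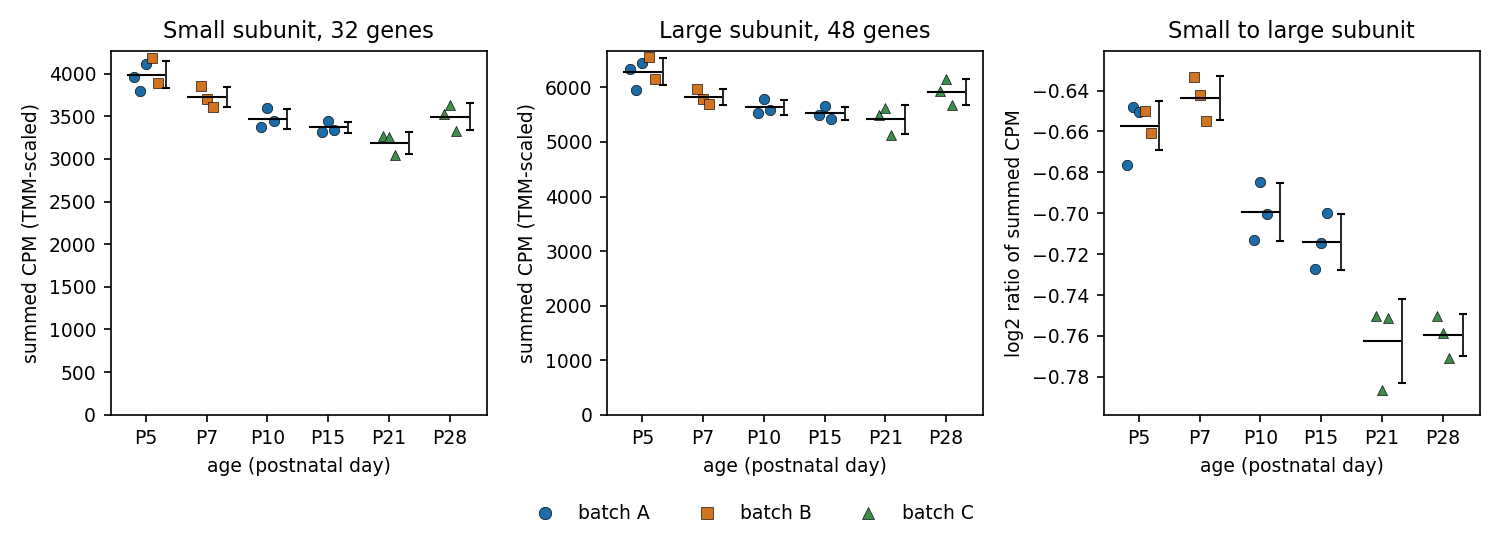
Summed TMM-scaled CPM of the small and large subunit genes, and the log2 ratio of the sums, for each of the 20 libraries by age; horizontal lines are means and error bars are SDs, and colour and shape give the batch. The 3 P15 libraries lie below all 5 P5 libraries in both sums (3320 to 3449 against 3800 to 4179 for the small subunit), and the ratio lies lower from P10 on.

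The balance of small to large subunit genes was compared within each library. The log2 ratio of the small to the large subunit sum was -0.66 ± 0.012 (P5), -0.64 ± 0.011 (P7), -0.70 ± 0.014 (P10), -0.71 ± 0.014 (P15), -0.76 ± 0.020 (P21) and -0.76 ± 0.010 (P28), with SDs over the libraries of an age. All P15 libraries lay below all P5 libraries, with a difference of -0.057. The exact two-sided permutation p was 0.0357, the smallest possible, and the adjusted p over the 4 tests of the ratio was 0.143. With so few libraries, no adjusted p of these 4 tests could fall under 0.05. The difference against the P5 libraries of batch A was -0.056. P21 and P28 differed by 0.0028 in the ratio (exact p = 0.8), and their distance from earlier ages cannot be told apart from batch C.

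Single genes moved by small amounts, and nearly all of them moved. A difference between ages was found for 75 of the 80 members (edgeR quasi-likelihood test, Benjamini-Hochberg adjusted p under 0.05), beside 79.7% of all 15373 genes tested. The span between the highest and the lowest age mean was 0.38 log2 units in the median, from 0.14 for Rpl4 to 1.00 for Rpl39, and 0 members spanned a full 2-fold. The highest age was P5 for 53 members, P28 for 23 and P7 for 4 (Rps2, Rps3a1, Rpsa and Rpl9). The lowest age was P21 for 42, P15 for 16, P7 for 10, P10 for 9, P5 for 2 (Rpl3 and Rpl4) and P28 for 1 (Rpl29). These age means are not adjusted for batch. P21 and P28 lie in batch C alone, so in the test over all ages and in these counts their distance from earlier ages cannot be told apart from batch.

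From P5 to P7, within 2 days, 25 members fell and 0 rose, beside 4.89% of all genes lower and 6.15% higher. At an unadjusted p under 0.05, edgeR had 42 lower and 1 higher, and DESeq2 called 30 lower and 1 higher. Large subunit genes made up 17 of the 25 and small subunit genes 8. The median log2 change of the 80 genes was -0.16, against 0.01 over all genes. The largest falls were those of Rpl39 (-0.54, SE 0.11), Rpl34 (-0.45, SE 0.11), Rpl29 (-0.34, SE 0.07) and Rps25 (-0.34, SE 0.07), with edgeR adjusted p from 0.0021 to 0.011. This comparison rests on the 2 P5 libraries of batch B: without P5 replicate 1 of batch B the count of 25 was 1, and with batch B libraries alone it was 4. It was 56 when libraries were scaled by total counts.

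From P5 to P15, the longest span inside a batch, 52 members fell and 2 rose, beside 31.8% of all genes lower and 31.6% higher. Of the small subunit genes 20 fell and 0 rose (unadjusted p under 0.05: 21 and 0), and of the large subunit genes 32 fell and 2 rose. The median change was -0.25 for the small and -0.21 for the large subunit, against -0.02 over all genes. Already at P10 48 members were lower than at P5 and 1 higher, beside 30.6 and 30.8% of all genes, and the median was -0.18. The largest falls to P10 were those of Rpl34 (-0.58, SE 0.10), Rps12 (-0.55, SE 0.06), Rps26 (-0.53, SE 0.06) and Rpl35 (-0.52, SE 0.09). Between P10 and P15 2 members fell and 0 rose, beside 2.51 and 1.83% (unadjusted p under 0.05: 8 and 1; DESeq2: 2 and 1). P5 libraries serve as the reference of the P7, P10, P15 and P28 comparisons alike, so these counts are not independent of each other. With total counts in place of TMM factors the median of all genes was -0.142 from P5 to P15, the members' median was -0.34 and 67 fell with 0 rising.

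**Figure D2:**
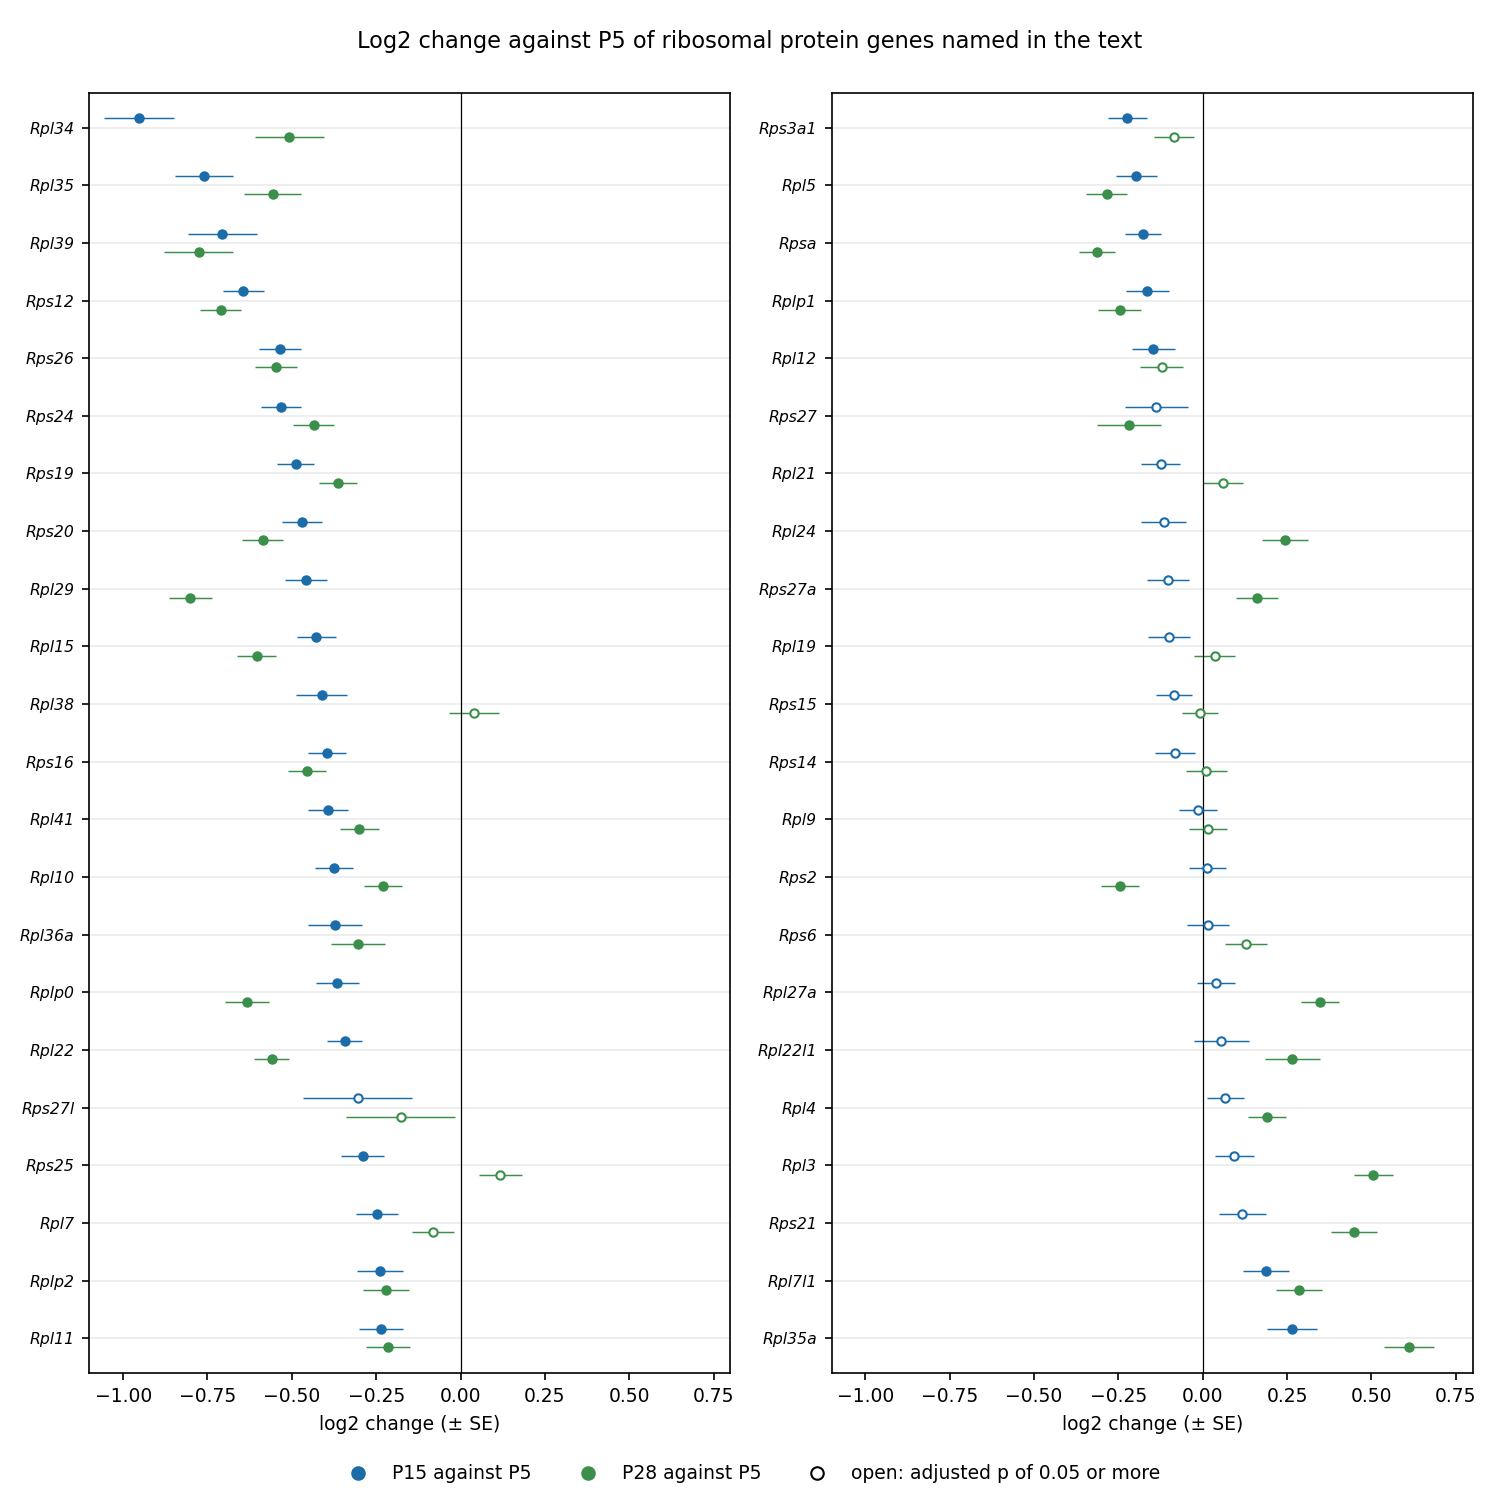
Fitted log2 change (points) with its SE (bars) for the 44 members named in the text, P15 against P5 in blue and P28 against P5 in green, ordered by the P15 change; filled points passed an adjusted p of 0.05. At P15 most points lie left of 0, from -0.95 for Rpl34 to 0.26 for Rpl35a, while at P28 the genes of the right-hand panel lie on both sides of it.

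Rpl34, a protein of the 60S subunit surface, had the largest fall by P15. Its level was 59.4, 45.5, 57.9, 55.2 and 42.8 CPM in the P5 libraries and 28.8, 27.0 and 28.2 CPM in those of P15. The groups lay far apart, and the P10 libraries, at 33.3, 37.7 and 37.7 CPM, lay between them. The log2 change was -0.95 (SE 0.10, edgeR adjusted p = 4.0e-08) from P5 to P15 and -0.37 (SE 0.11, adjusted p = 0.048) from P10 to P15. The step from P10 to P15 lost its call in 11 of 20 repeats of the fit that each left out 1 library (-0.44 to -0.34). It also lost it with total counts or DESeq2 size factors, and without the filter or the batch term. The P28 libraries, at 35.0 to 41.3 CPM, all lay above those of P15. Rpl41 was the other gene that fell from P10 to P15, from 124, 121 and 130 CPM to 111, 106 and 110 (-0.20, SE 0.06, edgeR adjusted p = 0.047). Its call was lost in 9 of the 20 repeats (-0.22 to -0.18), with total counts or DESeq2 size factors, without the filter or the batch term, under the replicate block and with batch A alone.

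Rpl39, among the smallest ribosomal proteins and a part of the wall of the exit tunnel, was at 44.9, 43.9, 46.1, 56.3 and 49.3 CPM at P5. It was at 28.9, 28.7 and 25.0 CPM at P15 and at 25.8, 30.1 and 22.7 CPM at P28. Every library of these later ages lay below every P5 library. The log2 changes were -0.71 (SE 0.10, adjusted p = 2.4e-06 by edgeR) to P15 and -0.78 (SE 0.10, adjusted p = 4.8e-07) to P28. Rpl35, which lies at the mouth of the same tunnel, went from 32.7 ± 1.63 to 19.7 ± 1.61 CPM at P15 (-0.76, SE 0.09, edgeR adjusted p = 3.5e-08).

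Among the small subunit genes the falls were led by Rps12, a protein of the 40S head. Its level was 104, 91.0, 104, 97.9 and 90.7 CPM at P5, 95.5, 95.7 and 96.1 at P7, and 65.8, 70.4 and 67.9 at P10. The P7 libraries lay inside the range of P5, and every P10 library lay below both. The log2 change was 0.02 (SE 0.07, adjusted p = 0.89) to P7, -0.55 (SE 0.06, adjusted p = 3.2e-08) to P10 and -0.64 (SE 0.06, adjusted p = 1.6e-09) to P15 in the edgeR fit. Rps26, which lies at the mRNA exit channel, went another way: it was already lower at P7, with 84.9 ± 0.69 CPM against 108 ± 6.95 at P5 (-0.31, SE 0.07, edgeR adjusted p = 0.0038), and lay at 75.2 ± 0.93 at P15 (-0.54, SE 0.06, adjusted p = 5.5e-08). Rps24 also fell by 0.53 (SE 0.06) from P5 to P15. Of the 14 proteins of the 40S head listed, 10 fell from P5 to P15, beside 20 of all 32 small subunit genes and 31.8% of all genes, with a median of -0.29, among them Rps19 (-0.49), Rps20 (-0.47) and Rps16 (-0.39). Rps19, whose human gene is mutated in Diamond-Blackfan anemia, went from 75.3 ± 4.29 to 55.6 ± 2.65 CPM.

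**Figure D3:**
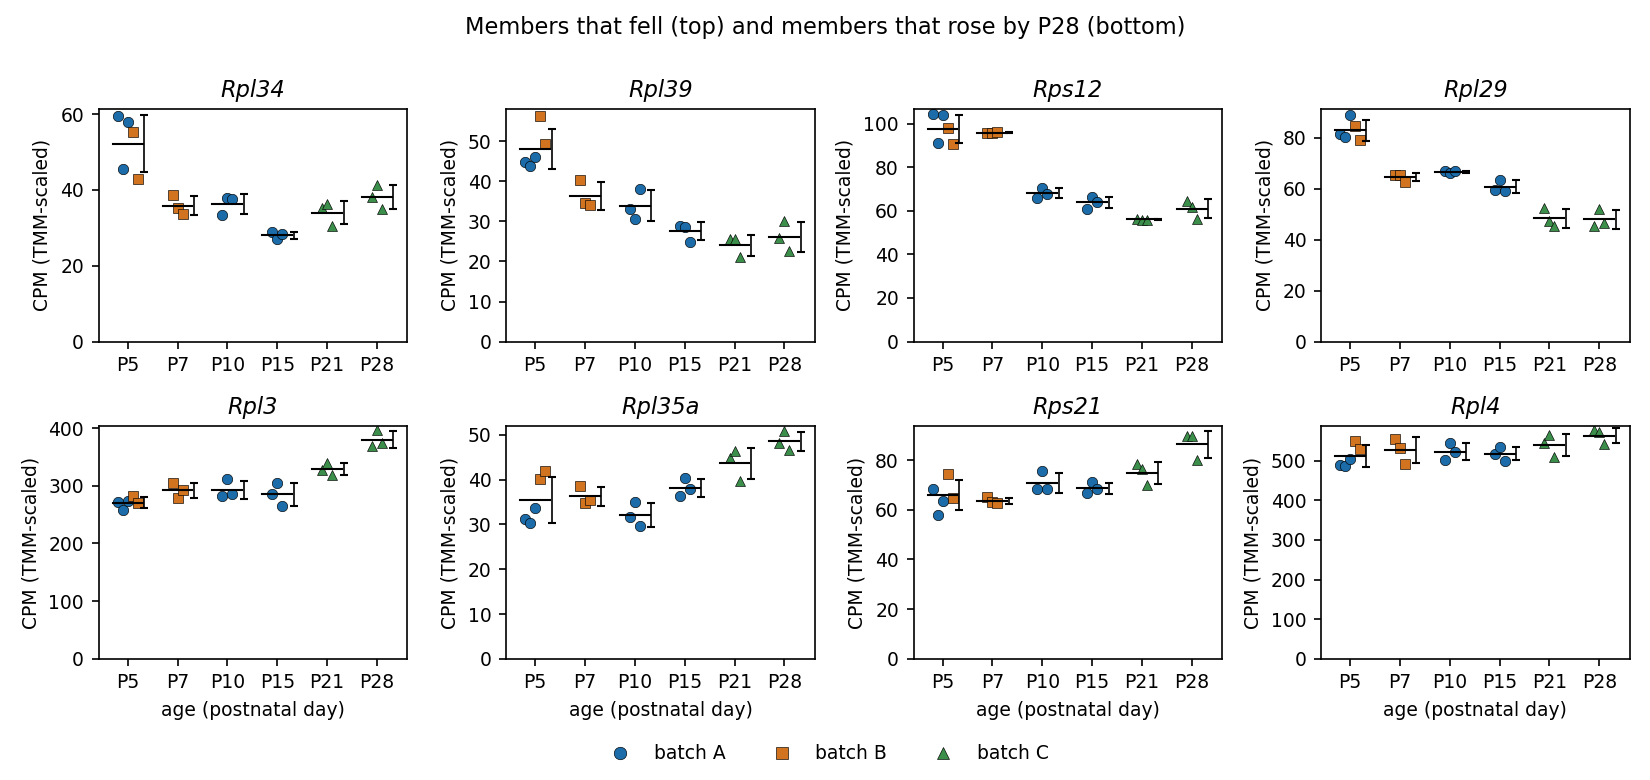
TMM-scaled CPM of 8 members in each of the 20 libraries by age, with means (lines) and SDs (bars); colour and shape give the batch, and each vertical axis starts at 0. Rpl34, Rpl39, Rps12 and Rpl29 fall at different ages (Rps12 from 95.8 at P7 to 68.0 at P10), and Rpl3, Rpl35a and Rps21 are highest at P28.

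The acidic stalk recruits translation factors to the large subunit, and its genes fell to different degrees. Rplp0, the stalk base, was at 219, 194, 214, 212 and 197 CPM at P5, at 161, 164 and 162 at P15 and at 137, 137 and 131 at P28. The 3 ages did not overlap. The log2 change was -0.37 (SE 0.06) to P15 and -0.63 (SE 0.06, edgeR adjusted p = 4.5e-09) to P28. Rplp1 changed by -0.16 and -0.25, Rplp2 by -0.24 and -0.22, and each of these 4 passed the test. Rpl12, at the stalk base beside Rplp0, fell by 0.15 to P15 (edgeR adjusted p = 0.048) and had -0.12 to P28 (adjusted p = 0.091).

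Rpl5 and Rpl11 form the 5S particle with 5S rRNA, which also binds the p53 regulator MDM2 when ribosome assembly is disturbed. Rpl5 went from 196 ± 7.17 CPM at P5 to 169 ± 6.24 at P15 and 159 ± 10.5 at P28, and Rpl11 from 158 ± 8.98 to 134 ± 5.62 and 136 ± 8.40. The log2 changes to P15 were -0.20 (SE 0.06) and -0.24 (SE 0.06), and those to P28 -0.29 and -0.21, and all passed the edgeR test. Rpl10, a late-joining protein near the peptidyl transferase centre, fell by 0.38 to P15 and by 0.23 to P28. Rpsa, also known as the laminin receptor, was at 283 ± 11.3 CPM at P5 and 310 ± 10.5 at P7 (log2 change 0.10, edgeR adjusted p = 0.30). It then fell to 248 ± 6.09 at P15 (-0.18, adjusted p = 0.0056) and 225 ± 9.86 at P28 (-0.31, adjusted p = 1.2e-05).

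Rps6, the target of S6 kinase whose phosphorylated form is a common readout of neuronal mTORC1 activity, passed the test at no age. Its means were 91.8 ± 3.35 CPM (P5), 92.3 ± 5.33 (P7), 94.1 ± 7.48 (P10), 92.8 ± 1.29 (P15), 90.1 ± 2.85 (P21) and 100.3 ± 6.06 (P28). The log2 change from P5 was 0.02 (SE 0.06, edgeR adjusted p = 0.84) to P15 and 0.13 (SE 0.06, adjusted p = 0.067) to P28. Rpl9, Rpl19, Rpl21, Rps14 and Rps15 were likewise called in no age comparison. Rps6, Rpl9 (adjusted p = 0.737) and Rpl19 (0.0560) also missed the edgeR test over all ages, as did Rps27l (0.286) and Rpl4 (0.0547), which are called in single comparisons. A p that misses the threshold does not show that a level was constant.

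By P28, 14 members were higher than at P5 and 42 lower, beside 35.3 and 36.4% of all genes. The median was -0.16 in each subunit, with 4 higher and 18 lower in the small and 10 higher and 24 lower in the large subunit. P28 lies in batch C and the P5 libraries do not, so age and batch cannot be told apart here. Scaling by total counts, under which the median of all genes was -0.138, gave 5 higher and 53 lower, a share of higher calls of 8.62% in place of 25%. With only genes of a mean of at least 5 CPM in the fit there were 10 higher and 49 lower and the median was -0.24.

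The largest fitted rise was that of Rpl35a, a large subunit protein whose human gene is also mutated in Diamond-Blackfan anemia. At P5 it measured 31.2, 30.4 and 33.6 CPM in batch A and 40.1 and 41.8 in batch B. It was at 36.2, 40.2 and 37.9 CPM at P15 and 48.1, 50.8 and 46.5 at P28. The P28 libraries lay above all others, while of the P5 libraries of batch B 1 lay within the range of P15 and 1 above it. The log2 change was 0.26 (SE 0.07, edgeR adjusted p = 0.0035) to P15 and 0.61 (SE 0.07, adjusted p = 8.1e-08) to P28. Without the batch term the P15 value was 0.10 and with total counts 0.14, and neither passed the test. The P28 value without the batch term was 0.45, which passed it and lay below the 0.49 of Rpl3 in the same fit. Rpl35a was also the member that differed most between batches at P5, by 0.37 (B against A). With Rpl27a and Rps3a1 (0.21 each) it made 3 members higher and 0 lower in batch B, beside 6.65 and 3.42% of all genes (unadjusted p under 0.05: 11 and 3).

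Rpl3, which lies beside the peptidyl transferase centre, was at 273, 257, 273, 282 and 269 CPM at P5, at 328, 339 and 318 at P21 and at 369, 396 and 374 at P28. The 3 groups followed each other without overlap. The log2 change from P5 was 0.09 (SE 0.06, edgeR adjusted p = 0.16) to P15 and 0.51 (SE 0.06, adjusted p = 3.0e-08) to P28. Rps21, a small protein of the 40S body, was at 65.9 ± 6.13 CPM at P5, 68.7 ± 2.17 at P15 and 86.4 ± 5.44 at P28 (0.45, SE 0.07, edgeR adjusted p = 3.0e-06). It was also the 1 member higher at P10 (0.16, adjusted p = 0.047), a call lost under DESeq2 and most other settings. Rpl27a rose by 0.35 (SE 0.06) to 93.6 ± 1.79 CPM at P28, Rpl24, which forms a bridge to the 40S subunit, by 0.24 (SE 0.07), and Rpl4, the member of highest CPM, by 0.19 (SE 0.06) to 563 ± 18.3. Rps27a, translated as a fusion with ubiquitin, measured 126 ± 8.46 CPM at P5 and 135 ± 10.4 at P28 (0.16, edgeR adjusted p = 0.025). At P5 it measured 121 ± 1.57 CPM in batch A and 135 ± 7.30 in batch B, the latter level with P28, and its call was lost without the batch term (0.10) and with total counts (0.04). Rpl24 was likewise at 60.2 ± 3.56 and 69.4 ± 0.085 CPM in the 2 batches of P5 against 71.2 ± 4.35 at P28, and its call was lost with total counts (0.12).

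Against these, Rpl29, a large subunit protein that mice can live without, fell the most from P5 to P28. It was at 81.4, 80.1, 89.0, 84.4 and 79.1 CPM at P5, at 59.5, 63.5 and 59.2 at P15 and at 45.3, 52.0 and 46.4 at P28. The 3 ages were fully apart, and the log2 change to P28 was -0.80 (SE 0.06, edgeR adjusted p = 5.5e-11). Rpl15 fell by 0.60 (SE 0.06), Rps20 by 0.59 (SE 0.06) and Rps12 by 0.71 (SE 0.06). Rpl38, which in mouse embryos is needed for translation of Hox mRNAs, did not follow them: it measured 54.4 ± 4.79 CPM at P5, 39.1 ± 0.77 at P15 (-0.41, SE 0.07, edgeR adjusted p = 3.8e-05) and 53.5 ± 2.80 at P28 (0.04, adjusted p = 0.63).

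From P21 to P28, both in batch C, 1 member rose and 0 fell, beside 0.065 and 0.189% of all genes. That count was 0 under the replicate block and in all 6 repeats that left out a P21 or P28 library, and DESeq2 called 4 members higher and 0 lower. The fitted change was positive in 79 of the 80 members, with a median of 0.13 against 0.00 over all genes, and at an unadjusted p under 0.05 edgeR had 45 higher and 0 lower. The members share their libraries and are not replicates of this difference, for which the exact permutation test of the sums over 3 against 3 libraries reached p = 0.1. Astrocyte and oligodendrocyte lineage markers were lower at P28 in the same libraries: the summed level of the 8 astrocyte markers was 1339 to 1628 CPM at P21 and 897 to 1130 at P28, and that of the 9 oligodendrocyte lineage markers 1028 to 1164 and 847 to 1004, both without overlap. Of these lists 0 genes passed the edgeR test (unadjusted p under 0.05: 6 astrocyte markers and 1 oligodendrocyte lineage marker lower), while 2 of 6 choroid plexus and blood markers fell, with overlapping sums of 81.1 to 168 and 58.6 to 180 CPM. Not all lists went this way: the summed level of the 8 immature neuron markers was 318 to 361 CPM at P21 and 384 to 402 at P28. The sums of microglia, endothelial and mural cell, interneuron and CA pyramidal cell markers overlapped between P21 and P28. The part of any of these markers in the members' difference was not tested.

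Rpl22, the protein that carries the tag in these mice, and its paralog Rpl22l1 parted with age. Rpl22 was at 132, 122, 132, 141 and 139 CPM at P5, at 103, 98.2 and 102 at P15 and at 85.7, 88.1 and 87.3 at P28. Its libraries were apart at all 3 ages, with log2 changes of -0.28 (SE 0.06) to P7, -0.34 (SE 0.05, edgeR adjusted p = 2.8e-06) to P15 and -0.56 (SE 0.05, adjusted p = 7.2e-10) to P28. Rpl22l1 was at 38.4, 33.8, 41.7, 41.4 and 37.5 CPM at P5, at 39.3, 42.8 and 36.2 at P15 and at 43.8, 48.5 and 44.6 at P28. P5 and P15 overlapped, and the P28 libraries lay above both. The log2 change was 0.06 (SE 0.08, edgeR adjusted p = 0.57) to P15 and 0.27 (SE 0.08, adjusted p = 0.0055) to P28, the latter lost with total counts (0.14). The counts do not separate tagged from untagged Rpl22 mRNA.

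Within a library, the ratio of Rpl22l1 to Rpl22 does not depend on the scaling. It was 0.290 ± 0.018 (P5), 0.305 ± 0.023 (P7), 0.442 ± 0.015 (P10), 0.392 ± 0.041 (P15), 0.483 ± 0.033 (P21) and 0.525 ± 0.023 (P28). The log2 difference from P5 was 0.43 at P15 and 0.86 at P28, without overlap in either case. For the levels above and for this and the other paralog ratios, P28 against P5 crosses batches, so age and batch C cannot be told apart there. Both reached the smallest p of the exact two-sided permutation test (0.0357), and the adjusted p over the 8 tests of 4 pairs was 0.0714, which misses the threshold.

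Rpl7l1, a Rpl7 paralog known for a part in ribosome assembly, also stood higher relative to Rpl7 at later ages. The ratio was 0.177 ± 0.010 (P5), 0.176 ± 0.0032 (P7), 0.230 ± 0.014 (P10), 0.240 ± 0.015 (P15), 0.244 ± 0.023 (P21) and 0.229 ± 0.014 (P28). The P15 and P28 libraries lay above all of P5, by 0.44 and 0.38 log2 units (exact permutation p = 0.0357, adjusted p = 0.0714 for each). Rpl7 itself fell by 0.25 (SE 0.06) to P15, and Rpl7l1 rose by 0.19 (SE 0.07, edgeR adjusted p = 0.019), a call lost with total counts (0.07) and without P5 replicate 2 of batch A or P15 replicate 1. The ratio of Rps27l, a target of p53, to Rps27 overlapped between P5 and each of P15 and P28: it was 0.134 ± 0.027 at P5, 0.136 ± 0.0030 at P15 and 0.159 ± 0.026 at P28 (log2 differences 0.05 and 0.26, exact permutation adjusted p = 0.964 and 0.367). That of Rpl36al to Rpl36a was 0.319 ± 0.036, 0.387 ± 0.030 and 0.365 ± 0.031 (0.28 and 0.20, exact permutation adjusted p = 0.114 and 0.190). Per kb of mRNA, Rps27l had the lowest level of the small subunit genes with 15.6 CPM and Rpl7l1 that of the large subunit genes with 18.9, while Rps15 (310.5) and Rplp1 (386.5) had the highest.

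**Figure D4:**
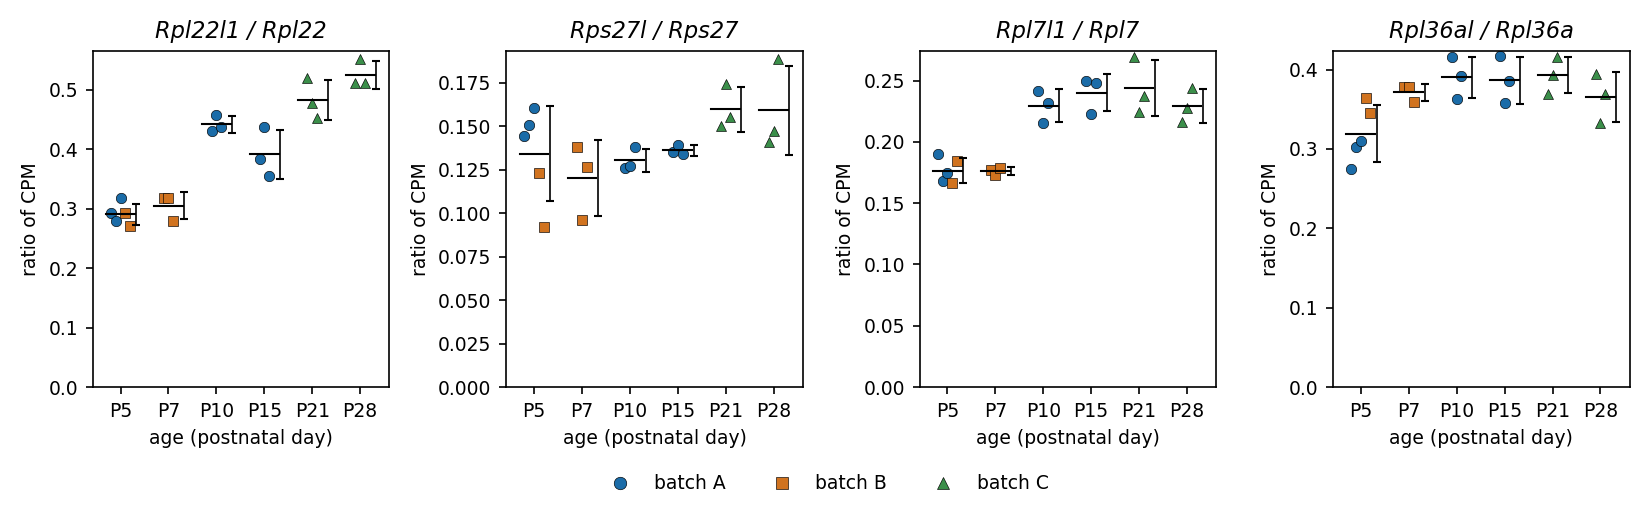
Ratio of the CPM of 4 paralogs to that of the gene they resemble, in each of the 20 libraries by age, with means (lines) and SDs (bars); colour and shape give the batch. Rpl22l1 to Rpl22 goes from 0.290 at P5 to 0.525 at P28 and Rpl7l1 to Rpl7 from 0.177 to 0.229, whereas in the other pairs the P5 libraries overlap those of P15 and of P28.

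In mm10 (GENCODE release vM21), all members named here are protein-coding genes. Rpl34 lies on chromosome 3 from 130726831 to 130730398 and Rpl39 on chromosome X from 37082520 to 37085402, both on the minus strand. Rpl22 lies on chromosome 4 from 152325742 to 152334071, Rpl22l1 on chromosome 3 from 28805436 to 28807424 and Rpl35a on chromosome 16 from 33056453 to 33060189, all on the plus strand. Rpl3 lies on chromosome 15 from 80077791 to 80091868 and Rps12 on chromosome 10 from 23785183 to 23787275, both on the minus strand. The members' change from P5 to P15 had a Spearman's rho of 0.067 with mRNA length and 0.23 with mean CPM over the 80 genes, which share their libraries.

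Other genes of the same machinery were set beside the members. Of the 4 ribosomal protein genes that the name pattern misses, Rack1, a scaffold on the 40S head, fell from 251 ± 8.63 to 195 ± 8.70 CPM by P15 (-0.38, SE 0.05, edgeR adjusted p = 7.85e-07). Fau, the precursor of eS30, fell by 0.26, and Rpl36al (0.02) did not pass the test. Of 16 other mRNAs with an oligopyrimidine tract, 11 fell and 2 rose from P5 to P15, beside 31.8 and 31.6% of all genes. Their median was -0.21. They included the elongation factor genes Eef1b2 (-0.54, SE 0.05) and Eef1a1, which went from 1925 ± 143 to 1409 ± 43.3 CPM (-0.38, SE 0.05), and the splicing factor gene Hnrnpa1 (-1.14, SE 0.06). The 2 that rose were Eif4b (0.29) and Pabpc1 (0.26).

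Ribosome biogenesis factors were split: 26 of 71 fell and 16 rose from P5 to P15, with a median of -0.07, where 31.8% of all genes fell and 31.6% rose, so the falls are near that share. Sbds, which helps release eIF6 from new 60S subunits, went from 24.6 ± 2.21 to 44.2 ± 1.94 CPM (0.92, SE 0.07, edgeR adjusted p = 1.3e-11), Utp4, of the small subunit processome, from 30.9 ± 1.66 to 58.2 ± 1.52 (0.96, SE 0.09), and Rrp1 rose by 0.59 (SE 0.06). Fbl, the methyltransferase of ribosomal RNA, fell by 0.85. From P5 to P28 16 fell and 27 rose, where 36.4% of all genes fell and 35.3% rose, and the rises are near that share. Of 30 genes of mTORC1 and its regulators, 13 rose and 6 fell from P5 to P15, with a median of 0.08, beside the same 31.6 and 31.8% of all genes. Sesn1, an inhibitor of mTORC1, had the smallest p and went from 26.5 ± 4.24 to 78.6 ± 5.64 CPM (1.73, SE 0.09, edgeR adjusted p = 1.9e-14), the GTPase gene Rragd rose by 0.47 (SE 0.07) and Rheb, the direct activator of mTORC1, by 0.44 (SE 0.07). What was measured is mRNA on tagged ribosomes and not the activity of the kinase.

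Nuclear genes of the respiratory chain have, like the members, short and abundant mRNAs, and they moved the other way. From P5 to P15 41 of 44 rose and 0 fell, beside 31.6% of all genes higher and 31.8% lower, with a median of 0.47. Among the rises were those of Cox8a (from 115 ± 8.99 to 246 ± 8.05 CPM), Ndufs7 (1.05, SE 0.07) and Ndufa1 (0.95, SE 0.07). Over the 1098 genes outside the members with an mRNA under 1000 bases, 29.4% were higher and 20% lower at P15 than at P5, with a median of 0.07. From P5 to P7 the median of the respiratory chain genes was -0.03 and that of the short mRNAs -0.02.

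**Figure D5:**
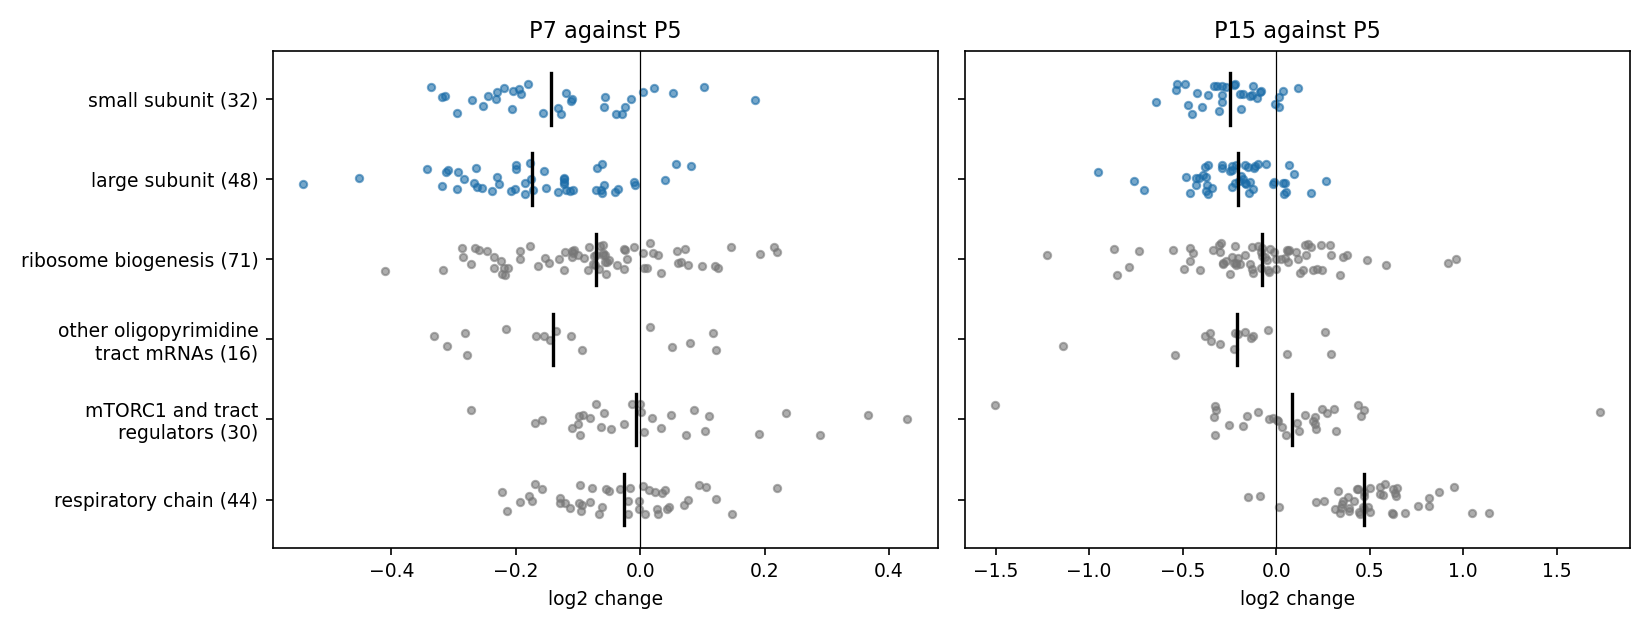
Fitted log2 change from P5 to P7 (left) and from P5 to P15 (right) of each gene (points) of 6 lists, with the number of genes in brackets and the list's median as a black line. At P15 the medians of both subunits (-0.25 and -0.21) and of other oligopyrimidine tract mRNAs (-0.21) lie below 0 and that of the respiratory chain genes (0.47) above it.

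Outside the members and lists, the genes whose 6 age means most resembled the summed ribosomal protein level were sought among 7287 genes with a mean of at least 20 CPM. They were Armc10 (Pearson's r 0.992 on the log2 scale), Inafm1 (0.979), Morn4 (0.976), Chmp7 (0.975) and Vps37d (0.974). Armc10 had means of 38.9 CPM at P5, 26.3 at P15, 25.0 at P21 and 30.8 at P28. These values describe 6 points that share their libraries and batches.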

How the data were processed

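The deposited table holds raw counts per gene symbol for the 20 libraries, with no normalization by the authors. Per the labels, libraries were made with a stranded kit after poly-A selection. Per the submitters' processing notes, STAR 2.7.5b, featureCounts, SAMtools 1.10 and genome build mm10 were used. Sources used here give neither the annotation nor the strand setting nor the treatment of reads with several positions. GENCODE release vM21 held 97.7% of the symbols and gave coordinates and mRNA lengths. A length is the median over principal transcripts paired with a RefSeq mRNA accession, or over a wider set of transcripts where there were none. Libraries of an age all differed by more than counting noise (chi-square over its degrees of freedom, 3.85 to 43.5), so each counted as 1 sample. The 3-count floor describes counting error alone.

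The main test was edgeR 4.0.16 (R 4.3.3): TMM factors, its default filter with ages as groups (15373 genes kept), and a robust quasi-likelihood fit over all 20 libraries with a mean for each age and a term for batch B against A (13 residual degrees of freedom), and Benjamini-Hochberg adjustment over all genes tested with a threshold of 0.05. Because of the batch term, changes to P10 and P15 rest on batch A for P5 and the change to P7 rests on batch B, that to P28 is against batch A with no batch shared, and P5 means are over all 5. Sums and ratios per library (pseudocount 0.1 CPM) were compared with exact permutation tests. The fit was tested on simulated data. DESeq2 1.42.0, other scalings and filters, a fit with no batch term, one with replicate numbers as a block, single batches, left-out libraries and an offset for mRNA length (chosen after seeing the data) were alternatives. Members and lists were chosen with earlier results of these data known. A few genes that the naming rule takes are not reported here. Genes are named by size of change (6 rises and falls for P15 against P5, 4 for other comparisons), as paralogs, as members of set functional groups, as members called in no comparison, and as the 3 genes of smallest p in a list. The genes shown with start windows, 40S head genes beyond these, Eif4b, Pabpc1, Fbl and Rpl15 were chosen after their values were seen.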

Additional observations from a re-analysis of the deposited data

Results flagged for a closer look

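A single result stood out within its group. Rpl36a, a large subunit gene on chromosome X, measured 59.8 CPM in P5 replicate 2 of batch A, while the other P5 libraries lay between 67.8 and 71.0 CPM. The library was far from the rest relative to the range of the 5 values. The same check was made on 87 measures over the 5 P5 libraries, and chance flags about 1 in 20 groups.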

How the results depend on the processing

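The size of the fall moved with the scaling and the filter. With total counts in place of TMM factors, members lower from P5 to P7 went from 25 to 56, members higher from 1 to 0 at P10, from 2 to 0 at P15 and from 14 to 5 at P28, and from P10 to P15 1 rose and 0 fell; the median of all genes was -0.099, -0.153, -0.142 and -0.138 from P5 to P7, P10, P15 and P28. With a minimum mean of 5 CPM for all genes, members lower were 59 at P10, 63 at P15 and 49 at P28. Counts of 0 to 4 members moved under other settings. The P10 rise was 0 with DESeq2 size factors, TMM factors without ribosomal protein genes, a minimum mean of 5 CPM, DESeq2, no batch term, batch A libraries alone and the length offset. P15 rises were 1 with the 5 CPM minimum and without the batch term. P7 rises were 1 with the 5 CPM minimum, DESeq2 and no batch term, and P7 falls were 4 with batch B libraries alone. From P10 to P15, rises were 1 with the 5 CPM minimum, DESeq2 and the length offset, and falls were 0 with DESeq2 size factors, no filter and no batch term and 1 under the replicate block. From P21 to P28, rises were 0 with the 5 CPM minimum, no batch term, the replicate block and the length offset, 4 with DESeq2 and 3 with batch C libraries alone. The cause was not tested. Leaving out a library gave 1 to 29 falls and 0 to 1 rises at P7, 39 to 52 and 0 to 2 at P10, 47 to 55 and 1 to 3 at P15, 36 to 43 and 11 to 14 at P28, 0 to 3 and 0 to 1 from P10 to P15, and 0 to 1 rises from P21 to P28. Of 187 calls of single members, 0 were reversed under any of these settings. Same-numbered libraries did not deviate together (14 of 57 pairs correlated above 0.1, median -0.027). Deviations from means of so few libraries are tied to each other, so these values cannot show whether the numbers mark a shared origin. The replicate block lost 8 of the 187 calls. Depth limits the rarest paralogs: Rpl10l was under the 3-count floor in every library, and Rpl39l and Rpl3l had at most 5 and 8 counts in a library.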
